A study of Drosophila melanogaster with 4 samples.

Results

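Small RNAs bound to the Argonaute protein Ago2 in fruit flies (Drosophila melanogaster) aged 30 d were set against those bound to it in flies aged 3 d. The comparison rests on 2 of the 4 libraries of the series, 1 at each age, chosen by their labels. The remaining 2 libraries hold small RNAs bound to Ago1 at 30 d and 3 d and are given beside them. All 4 came from whole male flies of the genotype FLAG-HA-Ago2, in which Ago2 carries an epitope tag, raised at 25 °C. Tagged Ago2 was collected on anti-FLAG M2 beads and Ago1 with an antibody to the protein, the RNA on the beads was size-selected on a gel, and the small RNAs were sequenced. No flies without the tag, no mock pull-down and no input RNA were analysed here, and the labels do not say how many flies entered a library. The deposited lists give each distinct small RNA sequence with its raw read count. They held 34554191 reads for Ago2 at 30 d and 13491805 for Ago2 at 3 d, and 26451651 and 26636441 for Ago1 at the same ages. With 1 library in each group, the differences described here have no replicate check and no test across ages was made.

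The 2 Ago2 lists held 4894 distinct sequences, of 7181 over all 4 lists, and 2391 of them stood in both. Abundance is given in RPM, meaning reads out of each 1000000 that a list holds. The 384 sequences with a mean of 10 RPM or more over both Ago2 libraries were compared. They held 99.7% of the reads at 30 d and 99.8% at 3 d, and the 4510 sequences below the minimum held 0.292% and 0.212%. They were grouped by exact overlap into 107 arms, an arm being taken as one strand of a microRNA (miRNA) hairpin with its end variants. Names were given from recalled mature sequences to 83 of these arms, and 24 arms with 63 sequences stayed unnamed and were not checked to be hairpin strands. A sequence is called by its arm and its length in nucleotides (nt), with "start +1" or "start -1" where it begins 1 nt after or before the most abundant start of the arm. The age ratio is log2 of RPM at 30 d over RPM at 3 d with 1 RPM added to both, so that 1 stands for 2-fold higher at 30 d. The intervals in parentheses are 95% and cover counting error only, since copies made by PCR cannot be told from separate molecules. They leave out the added 1 RPM, so for rare sequences the ratio can lie at or past their edge.

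In flies a miRNA strand is loaded into Ago1 or Ago2 from a duplex, and the sequence and pairing of the duplex influence which protein takes it. Bases 2 to 8 from the 5' end, the seed, lead the search for target RNAs, while the 3' end can be shortened by exonucleases such as Nibbler or lengthened by added bases. Small RNAs held by Ago2 receive a methyl group on their last base from the enzyme Hen1, which protects the 3' end.

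The forms that carry the differences are shown here, 5' to 3', as listed in the files with T for U and with the seed in capitals. In the first set each arm is given in a long form and in the short form that was more abundant at 30 d. Both forms share their start and seed and differ at the 3' end.
miR-263a-5p, 24 nt: aATGGCACtggaagaattcacggg
miR-263a-5p, 19 nt: aATGGCACtggaagaattc
miR-34-5p, 23 nt: tGGCAGTGtggttagctggttgt
miR-34-5p, 18 nt: tGGCAGTGtggttagctg
miR-277-3p, 22 nt: tAAATGCActatctggtacgac
miR-277-3p, 19 nt: tAAATGCActatctggtac
miR-305-3p, 23 nt: cGGCACATgttgaagtacactca
miR-305-3p, 18 nt: cGGCACATgttgaagtac
miR-276-5p, 22 nt: aGCGAGGTatagagttcctacg
miR-276-5p, 18 nt: aGCGAGGTatagagttcc
miR-276-5p, 17 nt: aGCGAGGTatagagttc
miR-263b-5p, 23 nt: cTTGGCACtgggagaattcacag
miR-263b-5p, 18 nt: cTTGGCACtgggagaatt
let-7-5p, 22 nt: tGAGGTAGtaggttgtatagta
let-7-5p, 18 nt: tGAGGTAGtaggttgtat

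The second set holds longer forms, first a pair that was at least 2-fold higher at 30 d, then the 2 leading starts of miR-956-3p, and then forms that were at least 2-fold lower at 30 d. The 2 starts of miR-956-3p have different seeds, whereas miR-92a-3p and miR-92b-3p share theirs.
miR-125-5p, 21 nt: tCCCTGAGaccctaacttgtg
miR-33-5p, 21 nt: gTGCATTGtagtcgcattgtc
miR-956-3p, 22 nt: tTCGAGACcactctaatccatt
miR-956-3p, 23 nt, start -1: tTTCGAGAccactctaatccatt
miR-263b-3p, 22 nt: aCTGAATTctcgtgggtctgca
miR-985-3p, 22 nt: cAAATGTTccaatggtcgggca
miR-959-3p, 21 nt: cTTAGTACtcgggttgataaa
miR-960-5p, 22 nt: tGAGTATTccagattgcatagc
miR-962-5p, 25 nt: aTAAGGTAgagaaattgatgctgtc
miR-975-5p, 22 nt: tAAACACTtcctacatcctgta
miR-92a-3p, 22 nt: cATTGCACttgtcccggcctat
miR-92b-3p, 22 nt: aATTGCACtagtcccggcctgc

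Both Ago2 libraries were led by the same few sequences. The 24 nt form of miR-263a-5p, an arm that protects developing sensory bristles from cell death, stood at 476499.8 RPM at 30 d against 451679.7 RPM at 3 d, which gives an age ratio of 0.08 (0.08 to 0.08). Over all its forms the arm took 55.0% of Ago2 reads in 30 d flies and 48.4% in 3 d flies, but 3.70% and 5.05% of Ago1 reads. The 22 nt form of miR-956-3p came second at both ages, with 110893 RPM at 30 d and 174127 RPM at 3 d (ratio -0.65). Its form with the start 1 nt earlier stood at 22023 RPM at 30 d against 42784 RPM at 3 d (ratio -0.96). Both were lower with Ago2 at 30 d, while with Ago1 their ratios were 0.26 and 0.08. The Hox cluster arm miR-10-5p, in its 22 nt form, had 42427 RPM at 30 d and 32547 RPM at 3 d. miR-184-3p, which acts in the female germ line and early embryo, had 52361 RPM at 30 d and 60408 RPM at 3 d in its 22 nt form. The 19 nt form of miR-263a-5p ranked 5 at 30 d and 12 at 3 d, with 36000.4 RPM and 10882 RPM. Beside it, 2 forms stood among the 10 most abundant at 30 d and not at 3 d, the 21 nt form of miR-10-5p with 12871 RPM at 30 d and 5347 RPM at 3 d, and the 23 nt form of miR-8-3p, an arm of the fat body, with 13262 RPM and 9826 RPM. Those that stood there at 3 d and not at 30 d were the 22 nt form of miR-8-5p with 9483 RPM at 30 d and 15519.8 RPM at 3 d, the 22 nt form of miR-956-3p with start -1, and the 26 nt form of an unnamed arm. RPM are shares, and with the reads of miR-263a-5p left out of the totals the age ratios of the other sequences were higher by 0.20 at the median, with a range of 0.07 to 0.64 that comes from the added 1 RPM.

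Short reads took a larger share of the Ago2 library at 30 d. Reads of 19 nt made up 4.08% in the 30 d library and 1.26% in the 3 d library with Ago2, while with Ago1 they were 0.653% and 0.517%. Reads of 18 nt made up 0.279% at 30 d and 0.0759% at 3 d with Ago2, and 0.187% and 0.0882% with Ago1. All reads of 19 nt or less came to 4.50% at 30 d and 1.38% at 3 d with Ago2, and to 0.899% and 0.662% with Ago1. The counting intervals of these shares did not overlap between ages. The shares of 22 nt, at 28.8% at 30 d and 35.1% at 3 d, and of 26 nt, at 1.19% and 2.41%, were lower with Ago2 at 30 d. A single sequence carried most of each difference. At 22 nt it was miR-956-3p, with 110893 RPM at 30 d and 174127 RPM at 3 d. At 26 nt it was unnamed arm 1, with 11667 RPM and 23888 RPM. The single arm miR-263a-5p held 81.8% of the short Ago2 reads at 30 d and 80.7% at 3 d, in each case mostly in its 19 nt form. Without that arm, reads of 19 nt or less still made up 1.82% at 30 d and 0.518% at 3 d with Ago2, against 0.845% and 0.627% with Ago1. The mean read length was 22.9 nt at 30 d and 23.1 nt at 3 d with Ago2, a difference of -0.13 nt, and -0.20 nt without miR-263a-5p. With Ago1 the difference was -0.10 nt. The libraries were cut from gels by size and the adapter trimming is not given in the sources used here. A part of either in the shares of short reads was not tested.

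**Figure D1:**
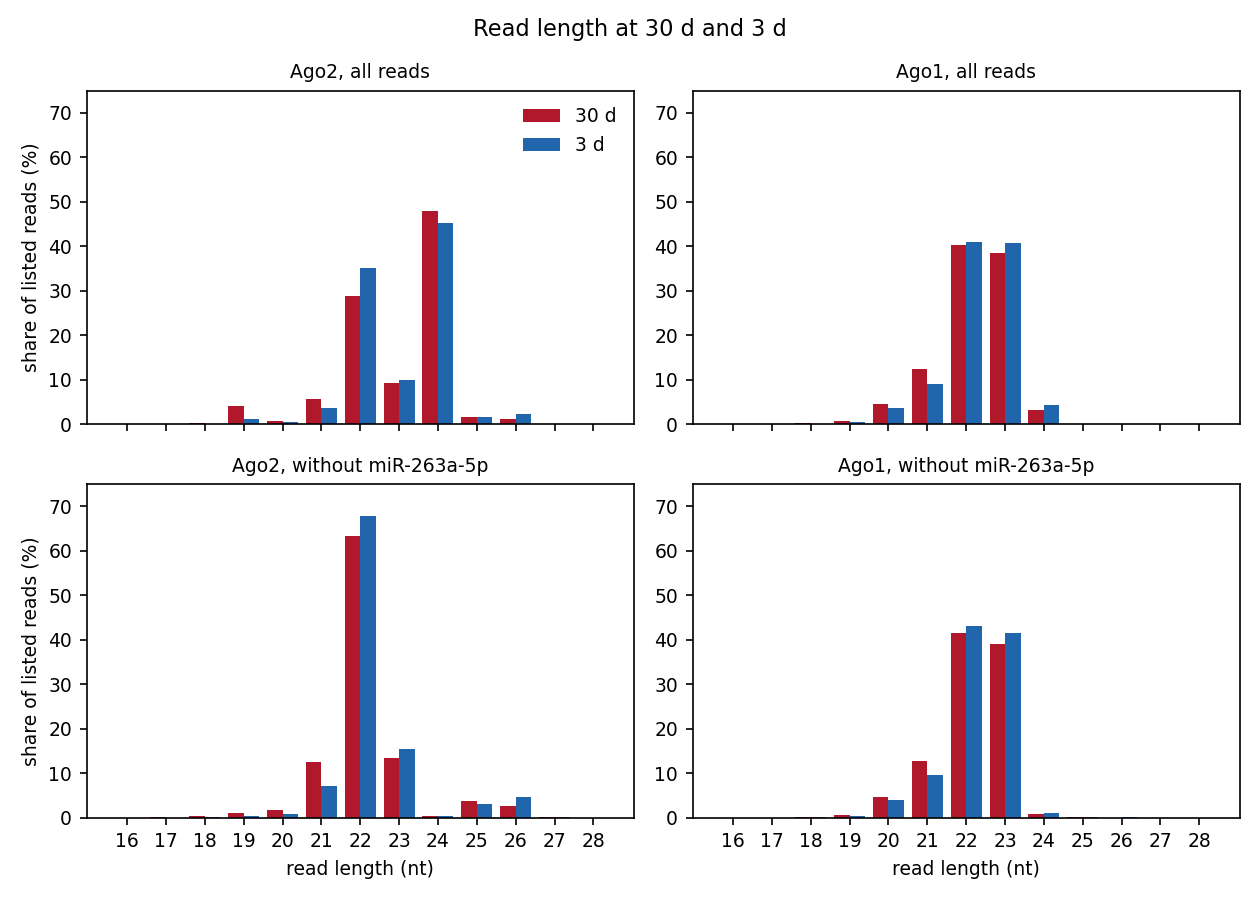
Share of listed reads (%, bars from 0) at each read length from 16 to 28 nt, at 30 d (red) and 3 d (blue), with Ago2 on the left and Ago1 on the right, for all reads (top) and without miR-263a-5p (bottom). With Ago2 the bar at 19 nt stands at 4.08% at 30 d and 1.26% at 3 d, and the bar at 22 nt at 28.8% and 35.1%. Most of the difference at 22 nt comes from a single form of miR-956-3p.

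First bases also differed. Reads starting with A made up 61.5% of Ago2 reads at 30 d against 53.4% at 3 d, and 15.1% and 9.84% with miR-263a-5p left out, so the difference was not that arm alone. How many other arms carried it was not counted. Reads starting with U made up 27.1% at 30 d and 35.0% at 3 d, and 59.8% and 67.8% without miR-263a-5p. Most of this difference came from miR-956-3p, whose leading forms start with U. Its 22 nt form had 110893 RPM at 30 d and 174127 RPM at 3 d. Its 23 nt form with start -1 had 22023 RPM and 42784 RPM. With Ago1 the share of U was 73.9% at 30 d and 75.3% at 3 d. Reads starting with C, a base often found at the start of small RNAs in Ago2, made up 9.34% of Ago2 reads at 30 d against 10.2% at 3 d, but 20.7% and 19.8% without miR-263a-5p, where the direction turns.

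Among single sequences, differences toward higher abundance at 30 d outnumbered those toward lower. Of the 384 sequences, 106 (27.6%) were higher by 2-fold or more with Ago2 at 30 d, 27 (7.03%) were lower by as much, and the median age ratio was 0.46. For the same 384 sequences with Ago1, 42 (10.9%) were higher and 25 (6.51%) lower by that measure, with a median of 0.05. The 384 were chosen by abundance with Ago2, and the added 1 RPM draws the Ago1 ratios of forms rare with Ago1 toward no difference. The lowest count among the 384 was 161 reads at 30 d and 10 reads at 3 d, and no interval of a sequence counted as higher or lower reached a ratio of 0. Scaling mattered for the longer forms: of 319 sequences of 20 nt or more, 60 were higher and 27 lower with RPM, and 39 and 37 with TMM. TMM and the median of ratios moved the median of all 384 by -0.26 and -0.23, so small positive ratios have no fixed direction. With TMM, 84 sequences were past 2-fold toward higher abundance and 37 toward lower, so the higher ones made up 69.4% of those past 2-fold, against 79.7% with RPM. The sequence with the lowest mean above the minimum was the 19 nt form of miR-316-5p, with 16.1 RPM at 30 d and 4.52 RPM at 3 d. The nearest one below it was a 19 nt form of bantam-5p with start +4, with 15.5 RPM and 4.37 RPM. The 2-fold limit fell between the 24 nt form of unnamed arm 1, at 1.03, and the 23 nt form of miR-2b-3p, at 0.999, and on the lower side between the 22 nt form of miR-92b-3p, at -1.01, and miR-956-3p, 23 nt, start -1, at -0.96.

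**Figure D2:**
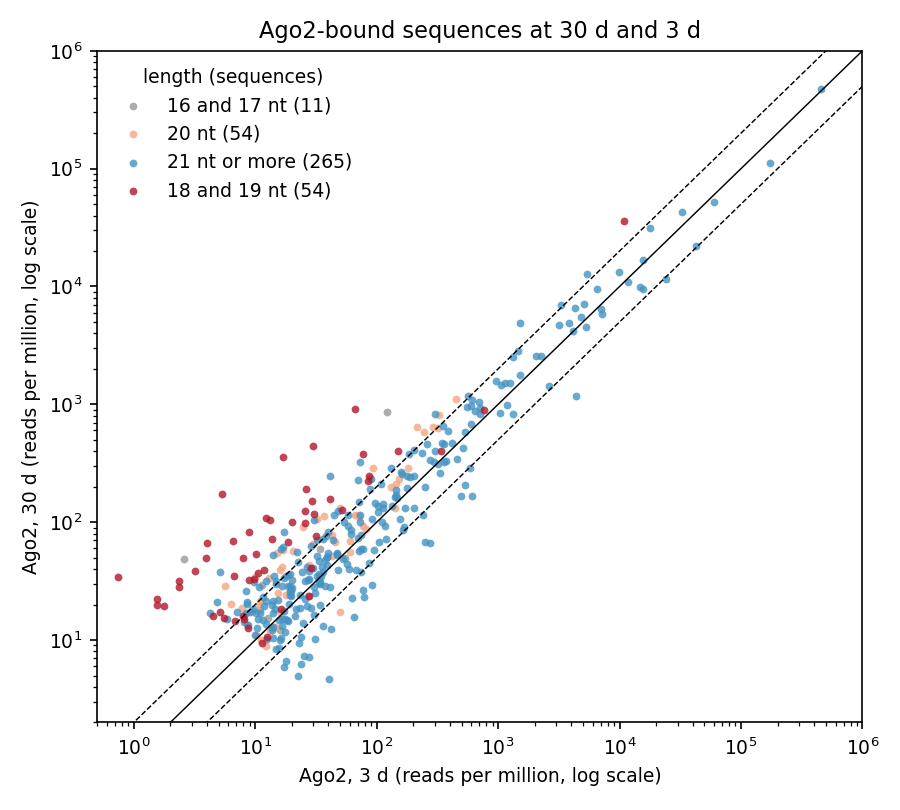
Each point is 1 of the 384 Ago2-bound sequences, with its abundance at 30 d (vertical) against 3 d (horizontal) in RPM on log axes, coloured by length; the solid line marks equality and the dashed lines 2-fold. Most sequences of 18 and 19 nt (dark red) lie above the upper dashed line, and none lies below the lower one.

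Most of the short sequences were higher at 30 d. Of 54 sequences of 18 and 19 nt, 43 passed 2-fold toward higher abundance at 30 d with Ago2 and 0 toward lower, with ratios from -0.24 to 4.79 and a median of 1.93. With Ago1, 17 of the same 54 were at least 2-fold higher and 1 lower, with a median of 0.43, and the Ago2 ratio was above the Ago1 ratio for 44 of the 54. These 54 were chosen by abundance with Ago2 alone. Where a form was rare with Ago1, the added 1 RPM draws its Ago1 ratio toward no difference, so part of this contrast comes from the choice. At 20 nt, 22 of 54 sequences were higher and 1 lower (median 0.80). At 21 nt or more, 38 of 265 were higher and 26 lower (median 0.23). The minimum admits a short form that is rare at 3 d only if it is abundant at 30 d, which favours higher ratios. With a minimum of 10 RPM at 3 d alone, 31 sequences of 18 and 19 nt remained, of which 24 were at least 2-fold higher and 0 lower (median 1.81), beside 47 higher and 34 lower among 309 sequences of 20 nt or more (median 0.25). Of the 54 short sequences, 39 began at the start of their arm and differed from its long forms at the 3' end alone. Among these 39, 33 were at least 2-fold higher (median 2.27). Of the 15 with another start, 10 were (median 1.66). The last base made no clear division: 13 of 16 of the 39 ending in U, 9 of 11 ending in C, 7 of 8 ending in G and 4 of 4 ending in A were at least 2-fold higher.

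**Figure D3:**
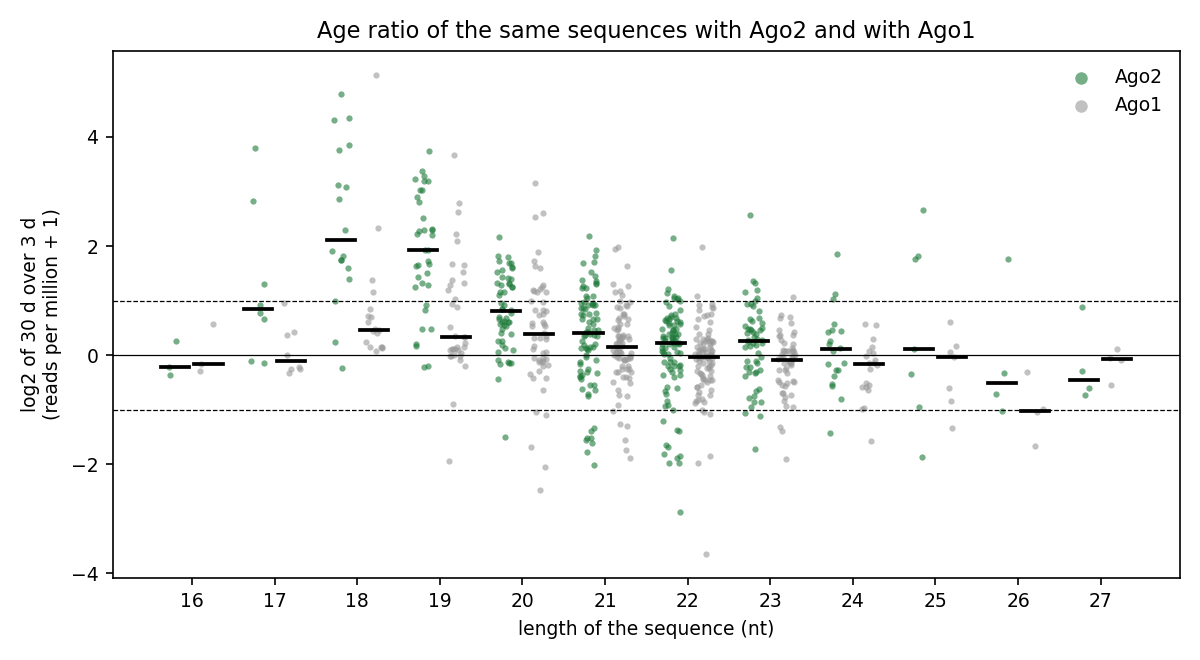
Log2 ratio of 30 d over 3 d (RPM + 1) of the 384 sequences by length in nt, with Ago2 in green and, for the same sequences, Ago1 in grey; bars are medians and dashed lines mark 2-fold. With Ago2 the medians are 2.10 at 18 nt and 1.93 at 19 nt, against 0.47 and 0.34 with Ago1, and those at 22 nt are 0.22 and -0.03. The sequences were chosen by abundance with Ago2, and the added RPM draws Ago1 ratios of rare forms toward no difference.

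The highest ratio belonged to miR-276-5p, the strand opposite to the guide of the memory and circadian hairpins miR-276a and miR-276b, which share this strand. Its 18 nt form stood at 174 RPM at 30 d against 5.34 RPM at 3 d (ratio 4.79, 4.70 to 5.39), while with Ago1 it had 0.643 RPM and 0.0751 RPM. Its 17 nt form, the most abundant one with Ago2 at both ages, stood at 857 RPM at 30 d against 121 RPM at 3 d (ratio 2.82, 2.76 to 2.90). At 22 nt the arm stood at 99.7 RPM and 72.3 RPM, so it was within 2-fold. Reads of 19 nt or less made up 90.8% (90.5 to 91.0) of the arm at 30 d and 64.0% (62.3 to 65.7) at 3 d with Ago2, against 22.7% and 6.35% with Ago1. The arm was thus short in most Ago2 reads already at 3 d, and more so at 30 d.

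miR-34-5p, whose loss shortens life and leads to brain degeneration in flies, is a known substrate of Nibbler. Its 18 nt form had 446 RPM at 30 d and 29.9 RPM at 3 d with Ago2 (ratio 3.86, 3.76 to 4.05), and 605 RPM and 16.2 RPM with Ago1 (ratio 5.14). It made up 81.0% of the arm's Ago2 reads at 30 d against 31.4% at 3 d, but 12.3% and 0.625% of its Ago1 reads. The forms of 21 to 24 nt differed less, with Ago2 ratios of 0.97, 0.68, 0.54 and -0.16 in order of length, and no form of 19 or 20 nt reached 1% of the arm in either Ago2 library. With both proteins the 18 nt form was higher at 30 d, and the Ago1 ratio was the larger one. The forms of 23 and 24 nt were lower with Ago1 at 30 d, with ratios of -0.50 and -1.58.

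miR-277-3p, which controls the breakdown of branched-chain amino acids and lies in the same cluster as miR-34, had more of a form of 19 nt. This form stood at 905 RPM at 30 d against 66.3 RPM at 3 d with Ago2 (ratio 3.75, 3.67 to 3.87), and at 128 RPM and 26.5 RPM with Ago1. The main form of 22 nt stood at 6481 RPM at 30 d against 7034 RPM at 3 d, so the 19 nt form was 9.80% of the arm at 30 d and 0.654% at 3 d. The form of 20 nt had 131 RPM at 30 d and 143 RPM at 3 d with Ago2, while with Ago1 it stood at 1246 RPM at 30 d against 138 RPM at 3 d. With Ago1 the forms of 19, 20 and 21 nt had ratios of 2.22, 3.16 and 1.97, so the higher short forms covered more lengths there than with Ago2, where those of 20 and 21 nt had -0.12 and 0.57.

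Short forms also stood out in miR-305-3p, a strand of a hairpin that acts in gut stem cells. Its 18 nt form stood at 356 RPM at 30 d against 16.97 RPM at 3 d (ratio 4.31, 4.20 to 4.59), and at 4.65 RPM and 1.16 RPM with Ago1. The ratios of its forms declined with length, with 2.32 at 19 nt, 1.26 at 20 nt, 0.95 at 21 nt, 0.58 at 22 nt and -0.21 at 23 nt. With Ago1 the same forms had ratios of 2.10, 2.61, 1.94, 0.60 and -0.23. The opposite strand, miR-305-5p, had 30.9% (29.6 to 32.3) of its Ago2 reads at 19 nt or less at 30 d and 9.05% (7.47 to 10.9) at 3 d.

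The paralogues miR-263a and miR-263b both had more short reads. The 19 nt form of miR-263a-5p made up 6.55% of the arm's Ago2 reads at 30 d and 2.25% at 3 d, and with Ago1 2.05% and 1.17%, and the 18 nt form had a ratio of 2.29 (2.22 to 2.40). For miR-263b-5p the forms of 18 nt, 19 nt and 23 nt were all at least 2-fold higher. The 18 nt form had 34.5 RPM at 30 d and 0.741 RPM at 3 d, which is 10 reads, so its ratio of 4.35 (4.66 to 6.61) is loosely bounded. The 23 nt form had 248 RPM at 30 d and 41.1 RPM at 3 d (ratio 2.56, 2.47 to 2.72), against 9.34 RPM and 26.1 RPM with Ago1 (ratio -1.39). Both 19 nt forms end in the letters GAATTC, which also stand near the start of the 3' adapter of the kit, and whether trimming cut longer reads there was not tested. Reads with this end made up 80.3% of the Ago2 reads of 19 nt or less at 30 d and 79.0% at 3 d. Without them, short reads came to 0.887% of Ago2 reads at 30 d and 0.290% at 3 d. Of the 54 sequences of 18 and 19 nt, 51 end in other letters, and 40 of these were at least 2-fold higher and 0 lower (median 1.93). Of the same 54, 23 had under 10 RPM at 3 d and passed the minimum through their 30 d value, and 19 of these 23 were at least 2-fold higher. The split by end letters was not repeated with a minimum at 3 d. It cannot show which reads trimming shortened, since a read cut before these letters would not carry them.

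Shorter forms were higher in arms of other kinds as well. let-7-5p, which times the passage to adulthood, had 82.4 RPM at 30 d and 8.82 RPM at 3 d in its 18 nt form (ratio 3.09, 2.96 to 3.50), and its forms of 19, 20, 21 and 22 nt had ratios of 2.27, 1.69, 1.45 and 0.68. With Ago1 the let-7-5p forms of 18 to 22 nt had ratios from -0.20 to 0.52. Among the 12 sequences with the highest ratios were also 17 nt miR-14-5p at 3.80, 18 nt unnamed arm 1 at 3.77, 19 nt forms of miR-956-3p with start -1 at 3.37 and start -2 at 3.20, 19 nt miR-927-5p at 3.28, 19 nt miR-14-3p with start +1 at 3.24 and 19 nt miR-970-3p at 3.20. With Ago1 these 7 sequences had ratios from -0.89 for miR-970-3p to 2.78 for miR-956-3p with start -1.

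**Figure D4:**
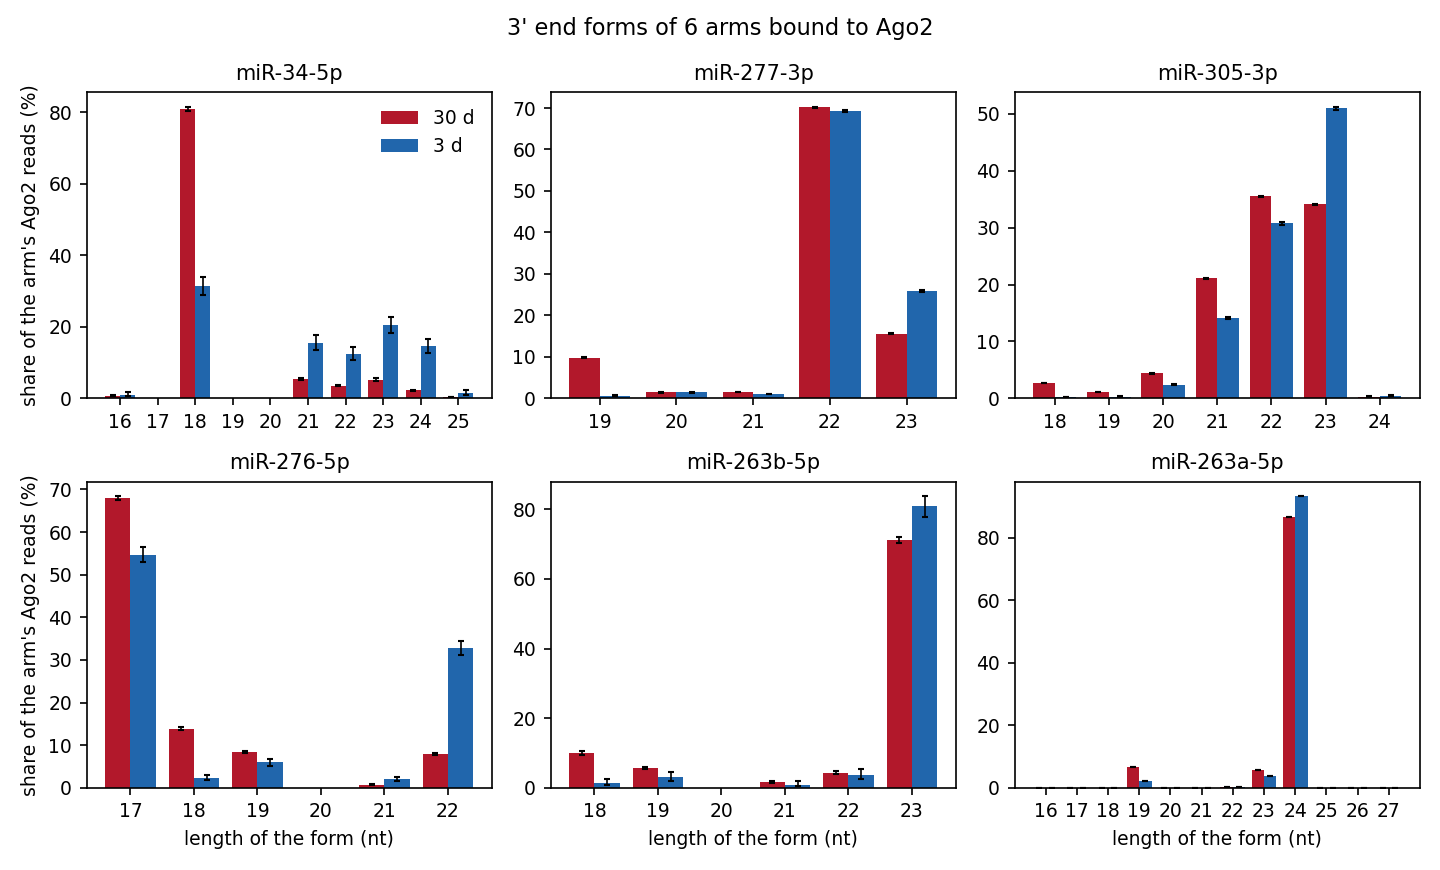
Share (%, bars from 0) of the Ago2 reads of 6 arms at each length of the forms that begin at the arm's own start, at 30 d (red) and 3 d (blue), with 95% Wilson intervals for counting error; forms under 1% of the arm and under 10 RPM at both ages are not drawn. The 18 nt form of miR-34-5p stands at 81.0% at 30 d and 31.4% at 3 d, and the 19 nt form of miR-277-3p at 9.80% and 0.654%.

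The 3' end was then compared within each arm, which needs no scaling between libraries. In 125 arms with 100 reads or more in both Ago2 libraries, the read-weighted mean 3' end lay at least 0.25 nt earlier at 30 d in 26 (20.8%) and at least 0.25 nt later in 0 (0.0%). The median shift was -0.10 nt, and 110 of the 125 shifts were below 0. With forms of 10 RPM or more alone, 15 arms ended earlier and 0 later, and the median was -0.0302 nt; with 1000 reads or more per arm, 12 of 69 ended earlier. With Ago1, 108 of these arms had 100 reads or more in both libraries, of which 19 (17.6%) ended earlier and 4 (3.7%) later, with a median of -0.06 nt. Of the 108, 13 ended earlier with both proteins, and 69 were shifted further toward the start with Ago2 than with Ago1. Arms ending earlier at 30 d were thus found with both proteins, and the 4 arms ending later were seen with Ago1.

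The largest shifts with Ago2 were those of miR-34-5p at -2.32 nt (-1.24 nt with Ago1), unnamed arms 33 and 9 at -2.05 nt and -1.36 nt (each under 100 reads in an Ago1 library), miR-34-3p at -1.17 nt (-0.61 nt), miR-276-5p at -1.16 nt (-0.53 nt), miR-12-5p at -1.03 nt (-0.27 nt), miR-305-5p at -1.01 nt (-0.71 nt) and unnamed arm 27 at -0.81 nt (-0.06 nt). Those farthest in the other direction stayed under 0.25 nt, with unnamed arm 8 at 0.17 nt, unnamed arm 22 at 0.16 nt, miR-281-1-5p at 0.14 nt, miR-984-5p at 0.11 nt, unnamed arm 23 at 0.10 nt, unnamed arm 15 at 0.07 nt, miR-956-5p at 0.07 nt and the muscle arm miR-133-3p at 0.06 nt. Both strands of the miR-34 hairpin and both strands of miR-305 were among the 26 that ended earlier. The mean start of an arm moved by at least 0.25 nt in 2 arms, both unnamed.

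Counted as shares of reads of 19 nt or less, 111 of 124 arms with such reads had a higher share at 30 d with Ago2. In 71 (57.3%) the share was higher with intervals that did not overlap, and in 1 arm, miR-14-5p, it was lower in that sense, at 12.2% (12.1 to 12.3) at 30 d and 13.2% (13.0 to 13.4) at 3 d, although the 17 nt form of that arm was among the highest ratios. With Ago1 the share was higher with separate intervals in 39 of 106 arms (36.8%) and lower in 12. The median share over arms was 2.03% at 30 d and 0.845% at 3 d with Ago2, and 0.613% and 0.493% with Ago1. miR-34-3p, the strand opposite to miR-34-5p, had 31.6% (29.1 to 34.2) short reads at 30 d and 4.63% (2.95 to 7.20) at 3 d. miR-12-5p had 38.7% (37.3 to 40.04) and 13.5% (11.6 to 15.7), and miR-970-3p had 21.5% (20.8 to 22.3) and 6.28% (5.20 to 7.56). In some abundant arms the shares stayed low at both ages: miR-184-3p had 0.979% and 0.372%, miR-10-5p 0.320% and 0.114%, and miR-956-3p 0.194% and 0.0231%. This did not hold for all of them. The most abundant arm, miR-263a-5p, had 36791 RPM of such reads at 30 d and 11146 RPM at 3 d.

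**Figure D5:**
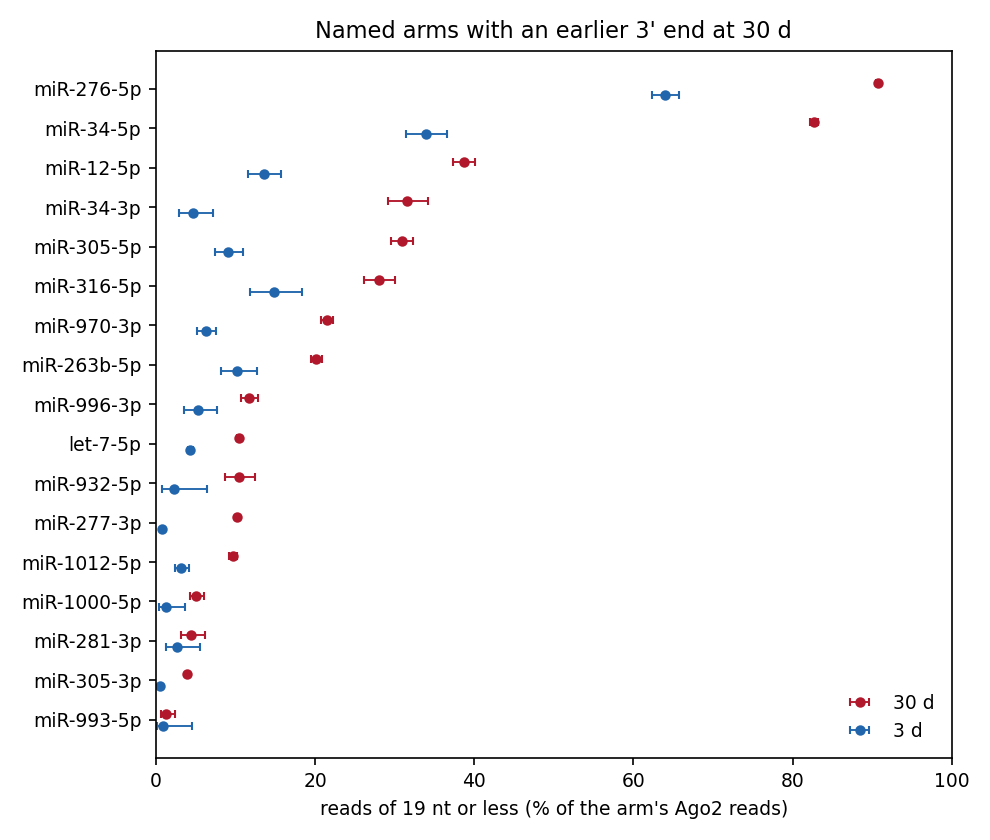
Reads of 19 nt or less as a percentage of the arm's Ago2 reads at 30 d (red) and 3 d (blue) in the 17 named arms whose mean 3' end lay at least 0.25 nt earlier at 30 d; lines are 95% Wilson intervals for counting error. The share is higher at 30 d in each of them, as in miR-34-5p with 82.7% at 30 d and 33.9% at 3 d, although the intervals of miR-281-3p and miR-993-5p overlap. The arms were chosen by their earlier 3' end, so a higher share of short reads follows largely from that choice.

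Longer forms that were higher at 30 d included arms of the let-7 complex and of the nervous system. The 21 nt form of miR-125-5p, which is processed from the same transcript as let-7, stood at 4891 RPM at 30 d against 1519 RPM at 3 d with Ago2 (ratio 1.69, 1.67 to 1.71). Its 22 nt form stood at 2573 RPM and 2237 RPM (ratio 0.20), and reads longer than 21 nt made up 34.3% of the arm at 30 d and 58.7% at 3 d. With Ago1 the ratios of these forms were 0.35 and -0.06. The 21 nt form of miR-33-5p, known in mammals from sterol metabolism, stood at 7011 RPM at 30 d against 3304 RPM at 3 d with Ago2 (ratio 1.09, 1.07 to 1.10) and at 8308 RPM and 3355 RPM with Ago1 (ratio 1.31). It was higher with both proteins. For 22 nt miR-281-1-5p the ratio was 2.15 (2.07 to 2.26) with Ago2 and 0.86 with Ago1. A form of miR-10-5p of 25 nt, 3 nt longer than the main one, stood at 37.8 RPM at 30 d against 5.11 RPM at 3 d (ratio 2.67), and one of 26 nt at 105 RPM and 30.3 RPM (ratio 1.75), while with Ago1 that of 26 nt stood at 1.10 RPM and 5.63 RPM. Some forms longer than the main one were thus higher.

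Of 12 sequences from arms known in the nervous system, 8 passed 2-fold toward higher abundance with Ago2 and 0 toward lower, with a median of 1.36, against 0.46 over all 384. All 12 were of 20 nt or more, a range in which 60 of 319 sequences were higher and the median was 0.34. With Ago1 their median was -0.33. The passenger strand miR-124-5p of the neuronal hairpin miR-124 stood at 232 RPM at 30 d against 89.8 RPM at 3 d with Ago2 (ratio 1.36, 1.28 to 1.46), and at 1.81 RPM and 4.02 RPM with Ago1. The photoreceptor arm miR-210-3p, in its 20 nt form, stood at 237 RPM at 30 d against 87.3 RPM at 3 d (ratio 1.43). The 21 nt form of miR-1000-5p, which limits glutamate release at synapses, had 21.04 RPM and 4.82 RPM (ratio 1.92). The 21 nt form of miR-276a-3p, needed for memory, had 116 RPM and 44.2 RPM (ratio 1.37). Its more abundant 22 nt form was within 2-fold, with 884 RPM and 641.5 RPM (ratio 0.46). So was 22 nt miR-210-3p, with 37.9 RPM and 36.2 RPM (ratio 0.07), while 22 nt miR-1000-5p had a ratio of 1.57. Whole flies were used, so more cells of a tissue, more RNA per cell and more loading into Ago2 cannot be told apart, and the same holds for the lower arms.

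Of the 27 sequences at least 2-fold lower at 30 d, 9 came from named arms of clusters known from the testis. All 9 sequences above the minimum that were named to these clusters, from 5 arms, were lower by 2-fold or more with Ago2. They had ratios from -1.99 to -1.39. Their median was -1.61 with Ago2 and -0.43 with Ago1. Of the 34 names of the list, 8 had an arm among those that were named. Whether the other names stand among the unnamed arms was not checked. The 22 nt form of miR-960-5p stood at 15.8 RPM at 30 d against 65.7 RPM at 3 d with Ago2 (ratio -1.99, -2.21 to -1.90), and at 3.40 RPM and 6.76 RPM with Ago1. miR-959-3p, of the same cluster, had 167 RPM at 30 d and 496 RPM at 3 d in its 21 nt form (ratio -1.56, -1.62 to -1.52). The 25 nt form of miR-962-5p had 67.7 RPM and 249 RPM (ratio -1.86). For 22 nt miR-975-5p, of a cluster on the X chromosome, the values were 4.98 RPM and 22.5 RPM (ratio -1.98). miR-960-5p shares its seed with miR-12-5p, whose 19 nt form stood in the other direction, at 54.1 RPM at 30 d against 10.2 RPM at 3 d (ratio 2.29). The 22 nt and 23 nt forms of miR-12-5p were within 2-fold, with ratios of 0.32 and 0.14.

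The miR-92 seed family, whose members in flies include the miR-310 cluster of the germ line and early embryo, also had negative ratios. Of 6 sequences of its arms 3 were at least 2-fold lower and 0 higher, with a median of -0.97 with Ago2 and 0.15 with Ago1. Over all sequences of 20 nt or more, the range of these 6, 27 of 319 were lower. Of the 3 lower ones, 22 nt miR-92b-3p was the one next to the 2-fold limit. The 6 include a form of miR-92b-3p with start +1, whose seed differs. The 5 that share the seed had medians of -1.01 with Ago2 and 0.05 with Ago1. In its 22 nt form miR-92a-3p had 12.4 RPM at 30 d and 42.2 RPM at 3 d (ratio -1.68, -1.95 to -1.58), and miR-92b-3p had 291 RPM and 587 RPM (ratio -1.01, -1.06 to -0.97). With Ago1 the same 2 sequences had ratios of 0.05 and -0.08.

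Further lower sequences came from other arms. The 22 nt form of miR-263b-3p, the strand opposite to miR-263b-5p, stood at 1181 RPM at 30 d against 4375 RPM at 3 d with Ago2 (ratio -1.89, -1.91 to -1.87), and at 11.1 RPM and 5.29 RPM with Ago1. The main forms of the 2 strands of the miR-263b hairpin thus had opposite age ratios, each in the reverse direction with Ago1. At 22 nt, miR-985-3p had 167 RPM at 30 d and 606 RPM at 3 d with Ago2 (ratio -1.85), and 2.80 RPM and 5.63 RPM with Ago1. The 23 nt form of miR-956-5p, the strand opposite to miR-956-3p, had 23.1 RPM and 78.3 RPM (ratio -1.72), against 48.3 RPM and 48.6 RPM with Ago1. Also among the 12 lowest were 21 nt miR-8-5p with start +1 at -2.02, 22 nt unnamed arm 2 with start +1 at -2.88, 22 nt unnamed arm 26 at -1.66 and, from the families above, 21 nt miR-92a-3p at -1.77 and 22 nt miR-962-5p at -1.81. The lowest of all, from unnamed arm 2, stood at 4.66 RPM at 30 d against 40.5 RPM at 3 d, while the form of that arm with 22 nt and the usual start stood at 164 RPM and 142 RPM.

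In 2 arms, forms that differ at the 3' end alone had age ratios past 2-fold in opposite directions. In both arms the lower form came inside 2-fold with totals without miR-263a-5p, at -0.84 for 26 nt unnamed arm 1 and -0.96 for 23 nt miR-956-3p, and 23 nt miR-956-3p had -0.90 with 5 RPM added. Unnamed arm 1 stood at 30846 RPM with Ago2 at 30 d and 41583 RPM at 3 d over all its forms. Its 26 nt form stood at 11667 RPM at 30 d against 23888 RPM at 3 d (ratio -1.03), its 25 nt form at 16833 RPM and 15625 RPM, and its forms of 24, 21, 19 and 18 nt had ratios of 1.03, 1.30, 1.93 and 3.77. With Ago1 the 26 nt form stood at 84.3 RPM and 176 RPM, a ratio of -1.05. For miR-956-3p the 19 nt form had 190 RPM at 30 d and 26.2 RPM at 3 d (ratio 2.82), and the rare 23 nt form 10.5 RPM and 23.9 RPM (ratio -1.11).

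Lists of miRNA strands by known role were described in the same way, against the 106 higher and 27 lower of all 384 sequences. Passenger strands, the strands opposite to the usual guide, had 11 of 72 sequences higher and 3 lower (median 0.33), and guide strands had 62 of 154 higher and 1 lower (median 0.74). At 20 nt or more the counts were 6 of 58 higher and 3 lower for passenger strands and 35 of 119 higher and 1 lower for guide strands. The list of arms known to be trimmed by Nibbler had 23 of 65 sequences higher and 0 lower, with a median of 0.60 and 2 of 9 arms ending earlier, against 26 of 125 over all arms. The list of ageing and lifespan had 13 of 38 higher and 1 lower, and 4 of its 8 arms, miR-34-5p, miR-305-5p, miR-277-3p and let-7-5p, ended earlier. Sensory organ arms had 16 of 30 sequences higher and 0 lower, and 10 of these 30 were of under 20 nt. These 30 came from 5 arms, and most of them, also of the 16, were end forms of the single arm miR-263a-5p. Forms of the same arm were counted separately in all lists, so the counts are not counts of arms. The let-7 complex had 8 of 20 higher, fat body, gut and insulin arms 11 of 29 higher and 1 lower, the K box family, which represses Notch targets, 3 of 10 higher, and mirtrons, which are spliced introns, 2 of 4 higher. Of the muscle arms, the 20 nt form of miR-1-3p stood at 90.4 RPM at 30 d against 24.9 RPM at 3 d (ratio 1.82), and the 22 nt form of miR-133-3p at 17.1 RPM and 14.1 RPM (ratio 0.26).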

How the data were processed

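Per the labels' protocols, Ago1 and tagged Ago2 were immunoprecipitated from whole male flies, and small RNA libraries followed with a TruSeq kit. The counts are those the authors deposited, raw and not normalized, as 1 list of sequences per library. The submitters' processing notes name CASAVA 1.8.2, the build dm3 and Bowtie without a version. How adapters were trimmed, how reads were aligned and how deeply each library was sequenced: not given in the sources used here. The total of a library is its listed reads. A sequence listed several times carried the same count each time and was counted once. Listed reads ranged from 13491805 to 34554191 per library, at which 3 reads are 0.0868 to 0.222 RPM.

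RPM are counts divided by listed reads, and log2 ratios have 1 RPM added to both libraries and cover sequences with a mean of 10 RPM or more. Ratios have exact conditional binomial intervals and shares Wilson intervals (scipy 1.17.1, Python 3.11.15). Sequences joined an arm by exact overlap of 14 nt or more, where the 5' end lay up to 8 nt and the 3' end up to 10 nt away from its most abundant sequence. The design named the annotated 3' end as the point of reference. The most abundant end of each arm was used instead, which leaves differences between ages unaltered. Near-identical hairpin copies, such as miR-276a and miR-276b, cannot be told apart by shared strands. Arm names are recalled background knowledge: all 104 have an annotated gene, and 95 an annotated arm within 1 nt of the same length. Chromosomes were looked up by gene symbol in a RefSeq table of a later build than dm3, so no coordinates are given.

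The text names the 12 highest and the 12 lowest ratios, the 10 most abundant per library, the 8 arms with the largest and smallest end shift, up to 6 pairs of end forms, and members of 13 lists. Members, lists and limits were chosen with earlier results of these data known. Sequences under 20 nt, list medians and arms singled out elsewhere were chosen after their values were seen. The intervals and counts were tested on simulated counts. Alternatives were other scalings (TMM of edgeR 4.0.16, median of ratios of DESeq2 1.42.0, totals without miR-263a-5p), minima, pseudocounts, every listing, and starts or forms of an arm; minima on the 3 d library or on the Ago1 libraries were added after seeing the data.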

Additional observations from a re-analysis of the deposited data

Results flagged for a closer look

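In 4 sequences the age ratio was at least 2-fold in opposite directions with Ago2 and with Ago1, and this difference between the proteins was not tested, since each group is 1 library. The 23 nt form of miR-263b-5p had a log2 ratio of 2.56 with Ago2, from 248 RPM at 30 d and 41.1 RPM at 3 d, and of -1.39 with Ago1, from 9.34 RPM and 26.1 RPM. The 26 nt form of miR-10-5p had a ratio of 1.75 with Ago2, from 105 RPM at 30 d and 30.3 RPM at 3 d, and of -1.66 with Ago1, from 1.10 RPM and 5.63 RPM. The 19 nt form of miR-8-3p with start +4 had a ratio of 1.66 with Ago2, from 39.1 RPM at 30 d and 11.7 RPM at 3 d, and of -1.94 with Ago1, from 491 RPM and 1884 RPM. The 21 nt form of miR-263a-5p with start +3 had a ratio of 1.04 with Ago2, from 149 RPM at 30 d and 71.5 RPM at 3 d, and of -1.29 with Ago1, from 5.86 RPM and 15.8 RPM.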

How the results depend on the processing

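Of 384 sequences, 106 were at least 2-fold higher and 27 lower, with 84 and 37 under TMM and 90 and 36 under the median of ratios. That median was taken over all 2391 sequences in both Ago2 lists, most of them rare and below the minimum. With miR-263a-5p left out of the sequences and totals, 123 of 362 were higher and 23 lower. Higher calls were 79.7% of all calls, and 69.4% with TMM and 71.4% with the median of ratios. The median ratio, 0.46, was 0.63 without miR-263a-5p, 0.19 with TMM, 0.23 with the median of ratios, 0.30 with a minimum of 10 RPM at 3 d and 0.28 with a minimum on the Ago1 libraries. A minimum of 100 RPM gave 31 higher and 9 lower, of 1 RPM 243 and 61, and no minimum 261 and 63 with a median of 0.041. At 18 and 19 nt, 40 of 48 sequences were higher and 0 lower without miR-263a-5p. Under each other scaling, pseudocount and listing, 42 to 44 of 54 were higher and 0 lower.

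The difference in mean read length, -0.13 nt, was -0.20 nt without miR-263a-5p and -0.13 nt with every listing. That in the share of reads of 16 to 20 nt, 3.54 percentage points, was 2.23 and 3.64. That in the share of 24 nt or more, 1.36 points, reversed to -1.26 without miR-263a-5p and was 1.30 with every listing. Counting each sequence once gives no difference by construction, so that alternative has no value.

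Arms ending earlier, 26, were 12 of the 69 with 1000 reads or more and 15 with forms of 10 RPM or more only, where the median shift was -0.0302 nt; arms ending later were 0 in each. With 1000 reads, 65 of 69 arms had a higher share of short reads. Alternatives were run for 42 sequences, those named by highest or lowest ratio, by abundance or as pairs of end forms. Over their 249 alternative values, no ratio past 2-fold changed sign. In 5 values, of 3 sequences (23 nt miR-956-3p, and 24 and 26 nt unnamed arm 1), the ratio came inside 2-fold. Other sequences of the text were not included. Of these, 21 nt miR-33-5p at 1.09 lay closer to 2-fold than the median moved with TMM (-0.26). So did 22 nt miR-92b-3p at -1.01 for the shift without miR-263a-5p (0.20). In 4 values, of 24 nt miR-263a-5p and 25 nt unnamed arm 1 under TMM and the median of ratios, a ratio of at most 0.11 turned negative; causes were not tested. No paired analysis was possible because each group has 1 library, and none could be left out. Depth limits forms that were rare at 3 d: the widest interval, of a form with 10 reads there, spanned 1.95 on the log2 scale.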
